A study of Homo sapiens with 45 samples.

Results

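Interferon-stimulated genes were followed through 45 Affymetrix U133 plus 2.0 arrays of A375 cells, an established human melanoma line. The list held 33 genes given by name, chosen with earlier results of these data known, and 32 of them had a probe set with a gene name here, out of 19775 genes named on the array. STAT2, the partner of IRF9 in the complex that interferon activates, had no named probe set and was not measured. For each gene the probe set brightest on average over the 45 arrays was used. The study transfected A375 cells with siRNA pools (Dharmacon siGenome Smartpools) and harvested RNA 48 h later. The methods give a final concentration of 20 nM siRNA and, for the transfection mix, 10 nM, whereas the sample labels give 100 nM. A total of 39 arrays carried RNA from cells with a targeting siRNA, each siRNA with 1 array, and these transfections were made in 3 experimental batches named KD1 (9 arrays), KD2 (23 arrays) and KD3 (7 arrays). Control siRNA and untreated A375 cells had 3 arrays each, whose batch is not given in the sources used here. The control was an inactive siRNA with a fluorescent label. All cells were of the same line, and the labels name no interferon treatment.

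Interferons are secreted proteins that cells release after sensing virus. Binding to their receptors activates kinases of the JAK family and, for the type I interferons, a complex of STAT proteins with IRF9 that binds a short DNA element in the promoters of interferon-stimulated genes. The products of these genes sense viral RNA, block its translation, degrade it or hold virus particles at the cell surface, and cells with no infection keep many of them at a low basal level.

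The element this complex binds, the interferon-stimulated response element, was looked for on both strands as GAAA, any 2 bases and GAAA again, in RefSeq promoter windows (GRCh38.p14), each 300 bases long from 250 bases before to 50 bases after a start. It was found in 19 of the 27 members with a window, against 4.38% of all 27305 genes with a window (3.57% of 35116 windows, since a gene can have several). The 27 include STAT2, whose RNA was not measured and whose window held no match. IRF7, OAS2, OASL, IFIT2, MX2 and USP18 had no window here. The members with a match were IFIH1, DDX60, EIF2AK2, OAS3, IFIT1, IFIT3, IFIT5, MX1, RSAD2, BST2, IFITM1, ISG20, SAMD9, ISG15, PARP9, IFI6, IFI27, IFI44 and IFI44L. The letters TTCNNNGAA, which resemble the site bound by STAT dimers, were found in 9 of the 27 and in 9.38% of all genes with a window. The 250 bases before the start of 3 members are shown because, of the members with a window, IFIT1 and IFIT3 had the lowest and IFIH1 the highest difference of batch KD3 from batch KD2 (described below). Capitals mark each match, which reads TTTC, any 2 bases and TTTC where it lies on the other strand. A match is a run of letters and not a measured binding site.
IFIT1, chr10:89392373-89392622, plus strand: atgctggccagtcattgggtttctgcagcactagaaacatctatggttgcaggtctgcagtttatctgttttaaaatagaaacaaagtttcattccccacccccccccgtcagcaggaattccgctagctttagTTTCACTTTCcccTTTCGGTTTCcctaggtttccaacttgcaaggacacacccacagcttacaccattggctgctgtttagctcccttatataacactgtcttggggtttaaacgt
IFIT3, chr10:89327747-89327996, plus strand: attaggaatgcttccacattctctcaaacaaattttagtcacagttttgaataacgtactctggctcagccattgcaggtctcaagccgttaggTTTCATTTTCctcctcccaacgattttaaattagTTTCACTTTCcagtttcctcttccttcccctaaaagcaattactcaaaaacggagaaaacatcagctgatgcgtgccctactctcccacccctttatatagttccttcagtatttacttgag
IFIH1, chr2:162318685-162318934, minus strand: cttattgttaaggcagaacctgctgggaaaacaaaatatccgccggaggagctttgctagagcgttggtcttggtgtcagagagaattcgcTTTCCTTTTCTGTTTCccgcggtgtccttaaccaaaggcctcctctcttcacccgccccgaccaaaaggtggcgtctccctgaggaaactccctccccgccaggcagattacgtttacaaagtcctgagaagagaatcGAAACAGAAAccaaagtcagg
IFIT1 had matches that began 116 and 103 bases before the start, IFIT3 at 156 and 122 bases, and IFIH1 had an overlapping pair at 159 and 153 bases and another at 21 bases. IFIT1, IFIT3 and IFIT5 all lie on chromosome 10.

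Most members were below the noise limit of the arrays, as were most named genes. The noise limit follows the authors, who took 1.5 times the 3′ BioB control signal, and lay at a log2 intensity of 8.59 (an intensity of 385). Of the 32 measured members, 6 had a median above it, beside 4800 of the 19775 named genes. These members were EIF2AK2 (the RNA-activated kinase PKR), IFIT5, MX2, ISG20 (an RNA exonuclease), IFI16 (a DNA sensor) and IFI35. The other 26 members were below the noise limit, so that their differences are less precise and can be compressed. The lowest mean of a member was 3.64 (IFI27) and the highest 11.16 (ISG20), although levels of different probe sets cannot be ranked against each other.

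**Figure D1:**
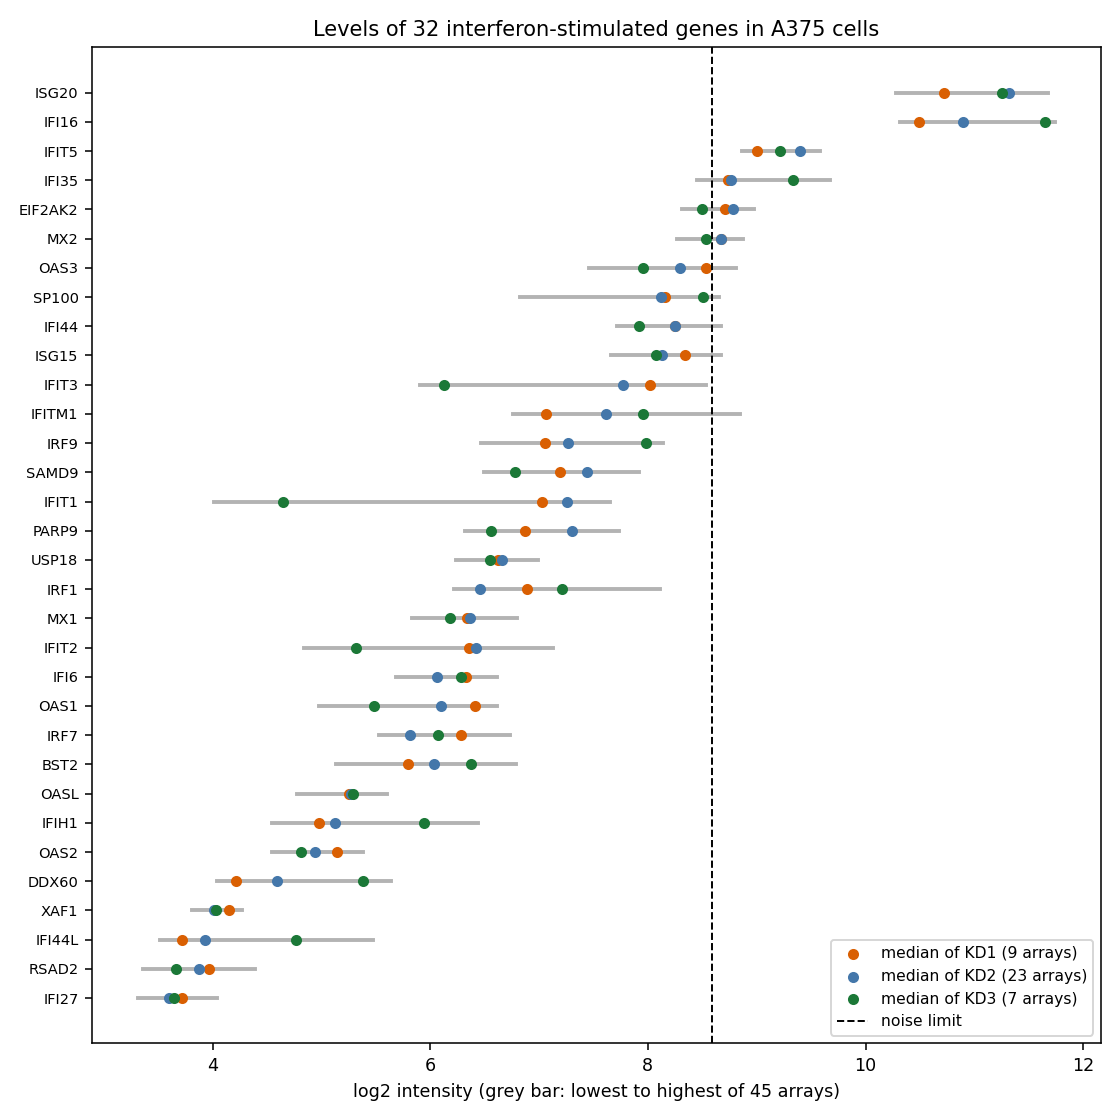
Log2 intensity (horizontal axis) of the 32 measured members, 1 per line. Grey bars run from the lowest to the highest of 45 arrays, points are the medians of batches KD1, KD2 and KD3, and the dashed line is the noise limit at 8.59, which the medians of 26 members do not reach. The KD3 point of IFIT1, at 4.65, lies far to the left of its KD1 and KD2 points.

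In the arrays, the melanocyte markers MITF, SOX10 and S100B were above noise, whereas the pigment cell markers PMEL, MLANA, TYR and TYRP1 were below it. None of the 4 measured leukocyte markers, 4 markers of plasmacytoid dendritic cells, 4 epithelial markers or 4 fibroblast markers had a median above noise. The mean log2 level of the 7 measured melanocyte genes was 6.04 to 6.32 in the KD3 arrays, 6.74 to 7.0 in the KD2 arrays and 6.95 to 7.12 in the KD1 arrays, and its part in the batch differences below was not tested. The mean of the 4 epithelial genes was also lower in KD3 with no overlap, at 3.88 to 4.14 against 4.35 to 4.70 in KD2 and 4.50 to 5.03 in KD1. KRT14 made up most of that, with medians of 4.65, 6.72 and 7.61 in KD3, KD2 and KD1. The mean of the fibroblast genes was 5.25 to 5.72 in KD3, 5.70 to 6.27 in KD2 and 5.50 to 5.99 in KD1, with medians of 4.31, 5.72 and 5.81 for LUM. The ranges of KD3 and KD2 overlapped for the leukocyte and the plasmacytoid dendritic cell genes. For the latter the mean was 5.14 to 5.28 in KD3 and 5.42 to 5.66 in KD1, with no overlap. TCF4, 1 of these genes, had medians of 6.64, 7.53 and 7.69 in KD3, KD2 and KD1. The part of these genes in the batch differences was not tested either. Batch KD3 also holds the MITF siRNA array. Control siRNA array 3 and untreated array 3 were near copies, with 95.4% of probe sets within 10% of each other against 62.0% in the next closest pair, so untreated array 3 was left out of the test of control siRNA. Nothing in the labels says that the control siRNA or the untreated arrays came from separate cultures, so their p-values measure only the spread between these arrays.

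The largest difference in these genes, that of IFIT1, lay between batches. In batch KD3, IFIT1, IFIT2 and IFIT3, which bind viral RNA and hinder its translation, were lower than in KD2 by 2-fold or more. IFIH1 (the RNA sensor MDA5), IFI44L, IFI16 and the transcription factors IRF1 and IRF9 were higher in KD3. The list therefore did not move as a whole. In KD3 against KD2, 12 of the 32 members were higher, 12 were lower and 8 were not called at a limma adjusted p under 0.05, beside 47.5% of all named genes called (20.5% higher and 27.0% lower). The median difference of the members was -0.08 on the log2 scale and that of all named genes was -0.03. At 2-fold or more, 3 members were lower, beside 2.22% of named genes, and 0 were higher, beside 1.95%. In microarrays of a whole culture, fewer cells that carry an RNA and less of it per cell cannot be told apart. Each siRNA was used in 1 batch, so in the targeting arrays the batch and its set of siRNAs cannot be told apart either. The p-values and intervals of the batch comparisons measure the spread between arrays within batches, and not that between repeats of a batch.

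IFIT1 showed the largest difference of any member. Its log2 intensity in the 7 KD3 arrays ran from 4.01 (STAT3 siRNA) over a median of 4.65 to 5.08 (CCNB2 siRNA). In the 23 KD2 arrays it ran from 7.03 over a median of 7.26 to 7.63, and in the 9 KD1 arrays from 6.60 over 7.03 to 7.65. Every KD3 array was thus below every array of the other batches, with a gap of more than 1 log2 unit. As median intensities, IFIT1 stood at 25.1 in KD3 and 153 in KD2. The fitted difference was -2.73 (SE 0.11, 95% interval -2.95 to -2.51, limma adjusted p 5.47e-25), a level 6.62-fold lower. Batch accounted for 94.2% of the variance of IFIT1 over the 39 arrays, against a median of 54.7% over the members, 33.8% over all named genes and 66.1% over genes above noise.

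IFIT3, which partners IFIT1 in RNA binding, ran in KD3 from 5.90 over a median of 6.12 to 6.85. In KD2 it ran from 7.2 over 7.77 to 8.07. The ranges did not overlap, and the difference was -1.52 (SE 0.10, limma adjusted p 2.11e-17). IFIT2 ran in KD3 from 4.84 over 5.32 to 5.85 and in KD2 from 6.10 over 6.42 to 7.12. It too had no overlap, with a difference of -1.07 (SE 0.10, limma adjusted p 6.01e-12). A further probe set gave -0.93 for IFIT3 and -0.22 for IFIT2, both called in the same direction. IFIT5, the one family member above noise, behaved differently in size. Its KD3 arrays ran from 9.12 over 9.21 to 9.30 and its KD2 arrays from 9.26 over 9.40 to 9.58, so the ranges met, and the difference was only -0.17 (SE 0.05, limma adjusted p 0.00281).

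**Figure D2:**
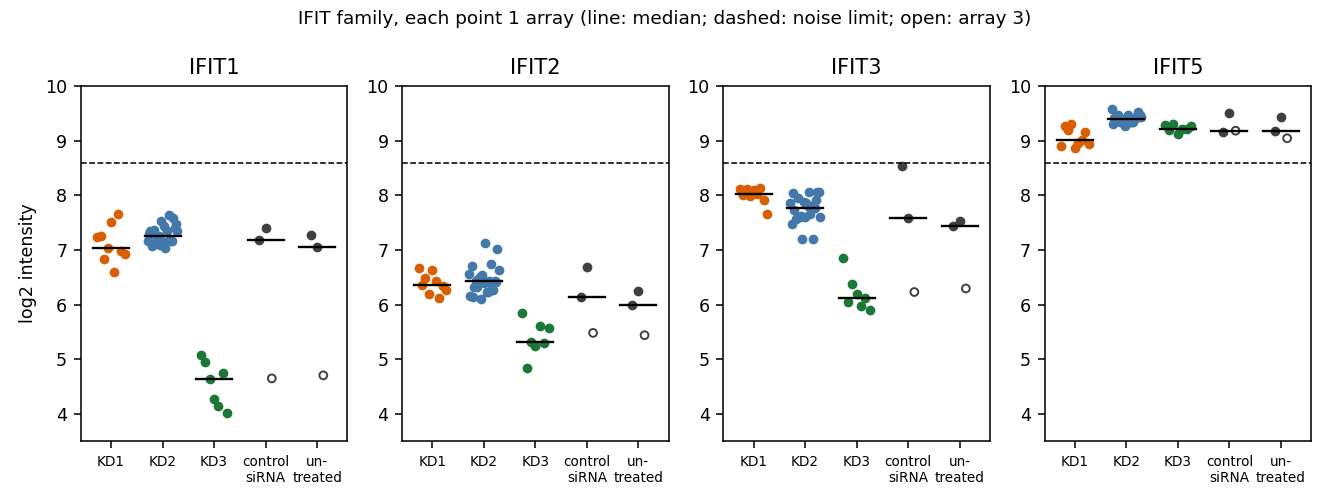
Log2 intensity (vertical axis) of IFIT1, IFIT2, IFIT3 and IFIT5 in each of the 45 arrays by group, with 1 point per array, black lines at group medians, open circles for control siRNA array 3 and untreated array 3, and a dashed noise limit at 8.59. The 7 KD3 arrays of IFIT1 sit between 4.01 and 5.08 with both open circles, and all other arrays sit at 6.60 or above, while IFIT5 stays near 9 in every group.

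Other antiviral effectors were lower in KD3 by less. PARP9, of the ADP-ribosyltransferase family, ran from 6.32 over 6.56 to 6.69 in KD3 and from 6.78 over 7.30 to 7.73 in KD2, with a difference of -0.79 (SE 0.08, limma adjusted p 4.01e-11). SAMD9, a restriction factor of poxviruses, ran from 6.49 over 6.78 to 6.98 in KD3 and from 7.01 over 7.44 to 7.92 in KD2, with a difference of -0.70 (SE 0.09, limma adjusted p 6.35e-09). The KD3 arrays were below all KD2 arrays for both, and also for OAS3. The oligoadenylate synthetases make the second messenger that activates RNase L, and of these OAS3 was at -0.49 and OAS1 at -0.61, whereas OAS2 (-0.13) and OASL (0.02) were not called. Both further probe sets of OAS2, which are dimmer, were called lower (-0.47 and -0.41). The GTPases MX1 (-0.27) and MX2 (-0.18) and the lipid enzyme viperin (RSAD2, -0.24) were lower. MX2 had a median over all arrays above noise, but every KD3 array was below the limit of 8.59. It ran from 8.42 over 8.53 to 8.56 in KD3 and from 8.53 over 8.67 to 8.87 in KD2, with limma adjusted p 0.000118. EIF2AK2 ran from 8.31 over 8.50 to 8.75 in KD3, where its median was below the noise limit. In KD2 it ran from 8.53 over 8.78 to 8.91. It was also called lower in KD3, at -0.26 (SE 0.06, limma adjusted p 0.000187). That call rests on the brightest of its 3 probe sets, since the most variable of them was at 0.07 and not called. In all, 6 members had every KD3 array below every KD2 array (IFIT1, IFIT2, IFIT3, PARP9, SAMD9 and OAS3), beside 9.37% of named genes.

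The members higher in KD3 included both sensors and the measured transcription factors. IFIH1 ran from 5.71 over 5.95 to 6.44 in KD3 and from 4.64 over 5.13 to 5.84 in KD2, with a difference of 0.89 (SE 0.10, limma adjusted p 4.79e-10). The single overlap came from the PIK3CB siRNA array at 5.84. IFIH1 had further probe sets, both dimmer and not called (-0.01 and 0.13). IFI44L ran from 4.30 over 4.77 to 5.48 in KD3 and from 3.57 over 3.94 to 4.65 in KD2, with a difference of 0.84 (SE 0.10, limma adjusted p 3.75e-09). IFI16, far above noise, ran from 11.53 over 11.64 to 11.74 in KD3 and from 10.48 over 10.90 to 11.23 in KD2, with no overlap. Its difference was 0.77 (SE 0.06, limma adjusted p 7.99e-14), and both further probe sets of IFI16 gave 0.96 and 0.84. IFI35, which binds NMI, ran from 8.88 over 9.33 to 9.67 in KD3 and from 8.45 over 8.76 to 9.04 in KD2, at 0.60 (SE 0.08, limma adjusted p 6.63e-09).

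All 3 measured transcription factors were higher in KD3. IRF1 was at 0.70, IRF9 at 0.67 and IRF7 at 0.26. The helicase DDX60 (0.62), the nuclear body protein SP100 (0.41), the tetherin BST2 (0.33), the membrane protein IFITM1 (0.33) and the mitochondrial protein IFI6 (0.32) were higher as well. SP100 ran from 8.32 over 8.51 to 8.65 in KD3, above every KD2 array, of which the SP100 siRNA array was the lowest at 6.83 and the highest was at 8.31. IFI16 and SP100 were the 2 members with every KD3 array above every KD2 array, beside 8.26% of named genes. The ubiquitin-like protein ISG15 (-0.04), its protease USP18 (-0.13), ISG20 (-0.14), IFI27 (0.04), IFI44 (-0.20), and XAF1 (0.02) were not called, nor were OAS2 and OASL. ISG20, above noise, ran from 11.04 over 11.25 to 11.35 in KD3 and from 10.88 over 11.32 to 11.67 in KD2. Over the 24 called members there were 20 further probe sets, of which 10 were called in the same direction, 9 were not called and 1, of SP100, was called in the opposite direction. The 8 members that were not called had 7 further probe sets, of which 3 were called lower, both of OAS2 and 1 of IFI44 (-0.33), and 0 higher.

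**Figure D3:**
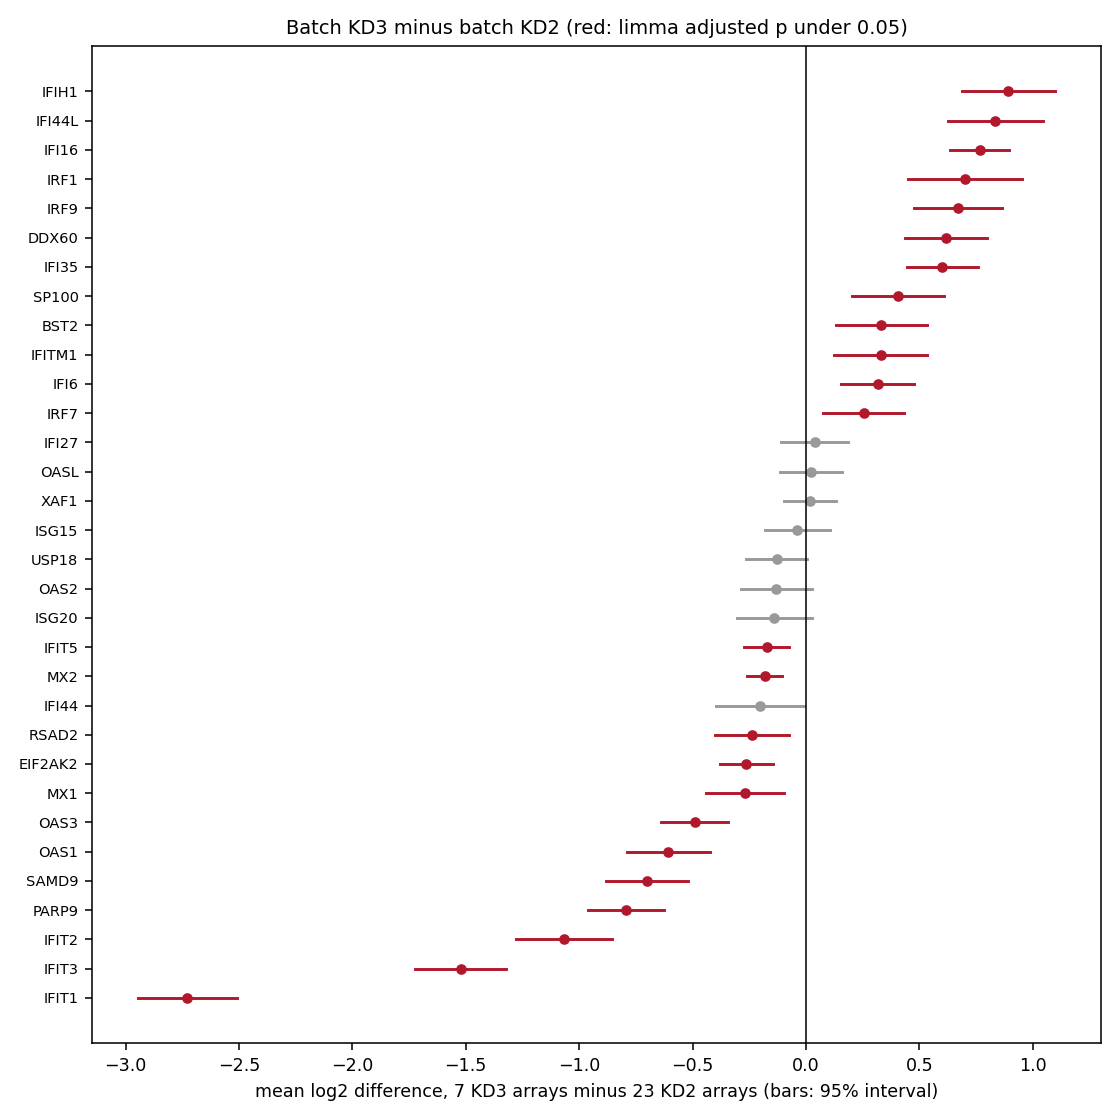
Mean log2 difference of the 7 KD3 arrays from the 23 KD2 arrays (horizontal axis) for the 32 members, with 95% intervals from limma. Red marks the 24 members called at an adjusted p under 0.05, from IFIT1 at -2.73 to IFIH1 at 0.89, and grey the 8 that were not.

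Batches KD1 and KD2 differed less in these genes. In KD1 against KD2, 8 members were higher, 9 were lower and 15 were not called, beside 49.1% of named genes called (26.2% higher and 22.9% lower), and 0 members reached 2-fold, beside 0.753% of named genes higher and 0.253% lower. The exonuclease ISG20 ran from 10.28 over 10.72 to 10.90 in KD1, at -0.66 (SE 0.07, limma adjusted p 6.52e-10). IFITM1 was at -0.52 and PARP9 at -0.43, and on the other side IRF7 was at 0.46, IRF1 at 0.31 and ISG15 at 0.30. Of the members above noise, IFIT5 was at -0.34 (limma adjusted p 1.95e-08) and IFI16 at -0.37 (limma adjusted p 1.58e-06), while EIF2AK2 (-0.09), MX2 (-0.01) and IFI35 (0.02) were not called. IFIT1 (-0.17, 95% interval -0.37 to 0.03) and IFIT2 (-0.07, 95% interval -0.26 to 0.12) were not called, and IFIT3 was slightly higher in KD1 (0.27, limma adjusted p 0.013). No member had KD1 arrays all above or all below those of KD2, beside 2.38% and 5.30% of named genes below and above.

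Against KD1, KD3 had 12 members higher and 13 lower, beside 54.2% of named genes called (22.7% higher and 31.5% lower). IFIT1 (-2.56), IFIT3 (-1.79) and IFIT2 (-0.998) were again lowest, the last just under 2-fold. IFI16 (1.13), IFIH1 (1.03) and DDX60 (1.02) were higher by 2-fold or more, beside 3.59% of named genes, and 2 members were lower by as much, beside 4.02%. IFI35 (0.59), ISG20 (0.52) and IFIT5 (0.16) were higher and EIF2AK2 (-0.17) and MX2 (-0.17) lower. This comparison shares the KD3 arrays with the one against KD2, so the values are set side by side only. Every KD3 array was below every KD1 array for 6 members, beside 15.4% of named genes, and above for 8 members, beside 12.5%.

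Arrays with no targeting siRNA, which did not enter these tests, fell into the same ranges of IFIT1. It was at 7.18, 7.41 and 4.65 in control siRNA arrays 1, 2 and 3, and at 7.27, 7.06 and 4.71 in untreated arrays 1, 2 and 3. The 3rd array of each group, which are near copies and count once, was thus within the KD3 range and the others within the range of KD1 and KD2. Over the 7613 probe sets above noise, control siRNA array 3 was closest to the KD3 medians, with a median absolute log2 difference of 0.0753. It was 0.284 from KD2 and 0.361 from KD1. Control siRNA array 2 was closest to KD2 (0.0679) and array 1 to KD1 (0.0831). Of the 24 members called in KD3 against KD2, control siRNA array 3 lay on the same side of the mean of control siRNA arrays 1 and 2 for 23. The exception was IRF7. Of all named genes called in that comparison, 91.7% lay on the same side. Control siRNA array 3 was below both other control arrays for 11 of the 12 lower members and above both for 10 of the 12 higher ones. The share of all called named genes under this stricter rule is not given here, so these counts have no background beside them.

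Among the other genes of the pathway, 11 of 77 measured genes were higher in KD3 than in KD2, 28 were lower and 38 were not called, beside 20.5% of all named genes higher and 27.0% lower. None of the 8 measured interferon genes was called, with 2 at an unadjusted p under 0.05 in limma. All 8 were below noise, with means from 2.99 (IFNK) to 4.39 (IFNL1), so a missing call does not show that they were unchanged. The medians of IFNB1 were near 4 in all batches (4.16 in KD1, 4.03 in KD2 and 3.83 in KD3). Of the genes named in this paragraph, IFNGR2, JAK1, TYK2, MAVS, TBK1, IRF3, TRIM25 and ADAR had medians above noise and the others did not. The receptor chain IFNAR1 was lower (-0.85, limma adjusted p 8.64e-11), as were the receptor kinases JAK1 (-0.30) and TYK2 (-0.21), whereas JAK2 (0.37), IFNGR2 (0.32) and IL10RB (0.31) were higher. In the sensing pathway, the RNA sensor RIGI (-0.27), its adaptor MAVS (-0.49), the kinases TBK1 (-0.33) and IKBKE (-0.22), IRF3 (-0.17), STING1 (-0.42) and the RNA editor ADAR (-0.34) were lower, and the ubiquitin ligase TRIM25 was higher (0.83).

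The feedback inhibitor SOCS3 was lower in KD3 (-1.16, limma adjusted p 8.14e-10). PIAS1 was lower too (-0.74), in a batch that held the PIAS1 siRNA array, and the phosphatases PTPN2 (0.26) and PTPN6 (0.25) were higher. Of antigen presentation genes, CIITA, the class II transactivator, was lower by 2-fold or more (-1.31, limma adjusted p 1.51e-15), with HLA-B (-0.45), HLA-C (-0.38), NLRC5 (-0.29) and HLA-F (-0.17), whereas PSMB9 (0.32), PSMB8 (0.17) and TAP2 (0.16) were higher. Of 26 further interferon-stimulated genes, 11 were lower and 2 higher, beside the same 27.0% and 20.5% of all named genes. GBP2 (-1.13), CMPK2 (-1.05), HERC5 (-0.93), TRIM5 (-0.81), GBP1 (-0.65), SP110 (-0.50), IFITM2 (-0.49), IFITM3 (-0.41), EPSTI1 (-0.28), PARP12 (-0.24) and LGALS3BP (-0.17) were lower. PLSCR1 (0.37) and NMI (0.55) were higher, the latter with the NMI siRNA array in KD2. Of the genes named in this paragraph, those above noise were PIAS1, PTPN2, HLA-B, HLA-C, HLA-F, PSMB8, PSMB9, IFITM2, IFITM3, LGALS3BP, PLSCR1 and NMI.

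The comparison of control siRNA with untreated cells asks whether transfection itself alters these RNAs, since double-stranded RNA can trigger interferon. No member was called and 2 had an unadjusted p under 0.05 in limma, beside 1.74% of named genes. Over all 54675 probe sets 0 were called, beside 1071 (1.96%) at an unadjusted p under 0.05. When a log2 change of 1 was added to 200 probe sets of data simulated for this comparison, 0 were called, so that this fit, which includes control siRNA array 3, could not detect a change of that size. The fits with the array number as a block were not simulated. The median difference of the members was -0.05, with 11 above 0 and 21 below, and that of all named genes was -0.03. Those with an unadjusted p under 0.05 were OAS2 (-0.39, SE 0.15, limma p 0.0384) and RSAD2 (-0.39, SE 0.15, limma p 0.0366). RSAD2 was at 3.73, 3.81 and 3.57 in the control siRNA arrays and at 4.14 and 4.05 in untreated arrays 1 and 2, where all values are far below noise. OAS2 was at 4.95, 4.75 and 4.75 against 5.17 and 5.24.

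Several of the larger values rested on single arrays. IFIT1 was at -0.75 (SE 0.79) with control siRNA array 3 and at 0.13 over arrays 1 and 2 alone. Without that array 12 of the 32 members changed sign, none of them called in either fit. IRF1 was at 0.60, IFI44L at 0.52 and IRF7 at 0.25, the largest positive values. IRF1 was at 6.99, 6.35 and 7.77 in the control siRNA arrays and at 6.53 and 6.34 in the untreated arrays, so that the highest value was that of array 3. Over arrays 1 and 2 alone, IRF1 was at 0.23, IFI44L at 0.14 and IRF7 at 0.27. IFITM1 was at -0.62 (SE 0.32) and PARP9 at -0.51 (SE 0.28), or at -0.66 and -0.26 over arrays 1 and 2 alone. Untreated array 1 was the one high array for IFITM1, at 8.85, against 7.80 in untreated array 2 and 7.44, 7.89 and 7.78 in the control siRNA arrays.

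Between arrays 1, the differences went both ways. Control siRNA array 1 was higher than untreated array 1 by 1.09 for IFIT3, and was at -1.41 for IFITM1, -1.02 for BST2 and -0.84 for IFI16. For arrays 2 the same differences were 0.05, 0.09, 0.02 and 0.03, in the same order. Members above noise had differences of -0.05 (EIF2AK2), -0.03 (IFIT5), 0.04 (MX2), -0.19 (ISG20), -0.10 (IFI16) and -0.04 (IFI35), all with standard errors of 0.16 to 0.34. Over arrays 1 and 2 alone these were 0.05 (EIF2AK2), 0.02 (IFIT5), 0.15 (MX2), -0.23 (ISG20), -0.41 (IFI16) and -0.28 (IFI35).

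**Figure D4:**
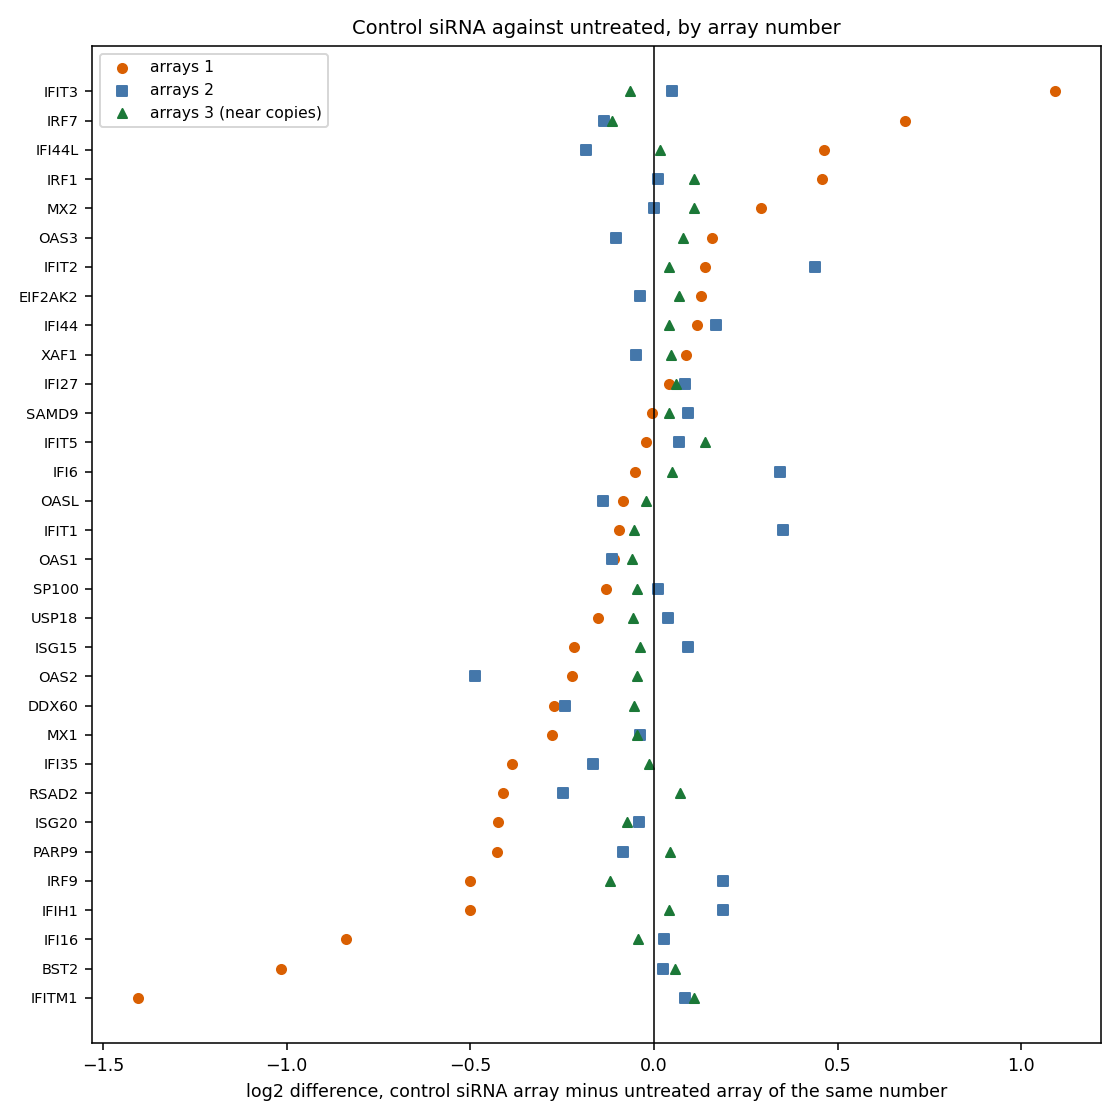
Log2 difference of each control siRNA array from the untreated array of the same number (horizontal axis) for the 32 members. Arrays 1 (circles) spread from -1.41 for IFITM1 to 1.09 for IFIT3, whereas arrays 3 (triangles), the near copies, lie close to 0.

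Single siRNAs were then set against the median of their own batch, which removes the batch differences. Of 1248 values of members, 9 were higher by 1.5-fold or more (0.721%), beside 0.326% of the values of all named genes, and 5 were lower (0.401%), beside 0.303%. The count of lower values depended on the reference, with 1 against the batch mean and 9 against the median of the other arrays of the batch. No share of all named genes is given here for those 2 references. Only 2 reached 2-fold, beside 0.0523% of the values of all named genes, namely IRF1 after PIK3CB siRNA and SP100 after its own siRNA. The 14 values came from 11 arrays and 11 members, all with medians below noise. Each siRNA had 1 array, so these differences have no replicate and no test. By array, the share of all named genes higher by 1.5-fold or more ran from 0.0354% (RBL2 siRNA) to 1.22% (HSF2 siRNA). The share lower by as much ran from 0.0101% (ABL1 siRNA) to 1.03% (MAP2K1 siRNA).

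After siRNA against PIK3CB, a catalytic subunit of phosphoinositide 3-kinase, with PIK3CB itself at -1.14, IRF1 was at 8.11 against a batch median of 6.46, a difference of 1.66 (3.15-fold). IFIH1 was at 0.71, IRF7 at 0.49 and MX1 at 0.42. IRF1 and IFIH1 passed 1.5-fold, in an array where 0.774% of all named genes were higher by as much and 0.131% lower. The IFIT family did not follow, with IFIT1 at -0.09, IFIT2 at -0.15, IFIT3 at 0.00 and IFIT5 at 0.01, and the median of the members was 0.01. Among the other pathway genes, this array held the highest values of CXCL10 (3.76), CXCL11 (1.82), SOCS3 (1.19), IFNGR2 (0.54), TAPBP (0.42) and IFNAR2 (0.29). It held the lowest values of CIITA (-0.48) and DHX58 (-0.39). Of these pathway genes only IFNGR2 had a median above noise. For IFIH1, the median over its 3 probe sets was at 0.07 in this array.

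After siRNA against SP100, itself a member, SP100 was at 6.83 against a batch median of 8.12 (-1.30), and the median over its 6 probe sets was at -0.53. In the same array IFIT2 was at 0.59, DDX60 at 0.58, SAMD9 at 0.48 and PARP9 at 0.43, and 22 members were above the batch median and 8 below. The median of the members in that array (0.10) and after CCNA2 siRNA (0.10) were the highest of the 39 against the batch median, and which of them came first depended on the reference. After CCNA2 siRNA, OAS1 was at 0.52, IRF7 at 0.49 and DDX60 at 0.41. FOXM1 siRNA followed (0.07), with IFIT2 at 0.70, ISG20 at 0.35 and OAS3 at 0.33. Over the 6 members above noise the highest was CDK7 siRNA (0.16), and CCNA2 siRNA was at -0.03. At the other end, the median was -0.12 after CEBPD siRNA, with IFIT3 at -0.57, BST2 at -0.55 and IFI44 at -0.40 and 26 members below the batch median. It was -0.10 after STAT3 siRNA and -0.09 after TCEA1 siRNA, where OAS1 was at -0.48, SAMD9 at -0.47 and IFIT3 at -0.36. The lowest array was also not fixed, being TCEA1 siRNA against all 39 arrays (-0.19), against control siRNA (-0.19) and after each array was centred (-0.15), STAT3 siRNA with the most variable probe sets (-0.13) and CCNB1 siRNA over members above noise (-0.12). The SD of the medians against the batch median over the 39 arrays was 0.0504, and every one of them was within 0.13 of 0. The median of all named genes ran from -0.019 (HDAC3 siRNA) to 0.017 (NMI siRNA), and was -0.013 after CCNA2 siRNA. The counts of members above and below the batch median, here and in the next paragraph, have no share of all named genes beside them.

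After STAT3 siRNA, STAT3 was at -2.04. In that array IFIT1 was at -0.63, IFITM1 at -0.54 and IFI44L at -0.47, with 21 members below the batch median and 8 above. After NMI siRNA, NMI was at -2.27, IFIT3 at -0.57, IRF9 at -0.48 and SAMD9 at -0.43, whereas IFI35, the partner of NMI, was at 0.00 and the median of the members at 0.00. After PIAS1 siRNA, which lowered this inhibitor of STAT proteins to -1.03, IFIT1 was at -0.49 and IFIT2 at 0.29, and the median was 0.02. In that array 20 members were above the batch median and 9 below. After STAT6 siRNA (STAT6 at -1.09), the median was 0.01, with IFI44 at 0.42 and OAS1 at -0.33. RELA siRNA, against a subunit of NF-kappaB (RELA at -0.999), gave 0.06, with BST2 at -0.40, 21 members above the batch median and 9 below. The deacetylases HDAC2 and HDAC3 were each at -1.49 after their own siRNAs, and the medians were -0.03 and -0.08, with IFI35 at -0.31 in the former and IFI44 at -0.43 and IFI16 at -0.42 in the latter. Members above and below the batch median numbered 11 and 19 after HDAC2 siRNA and 9 and 20 after HDAC3 siRNA.

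**Figure D5:**
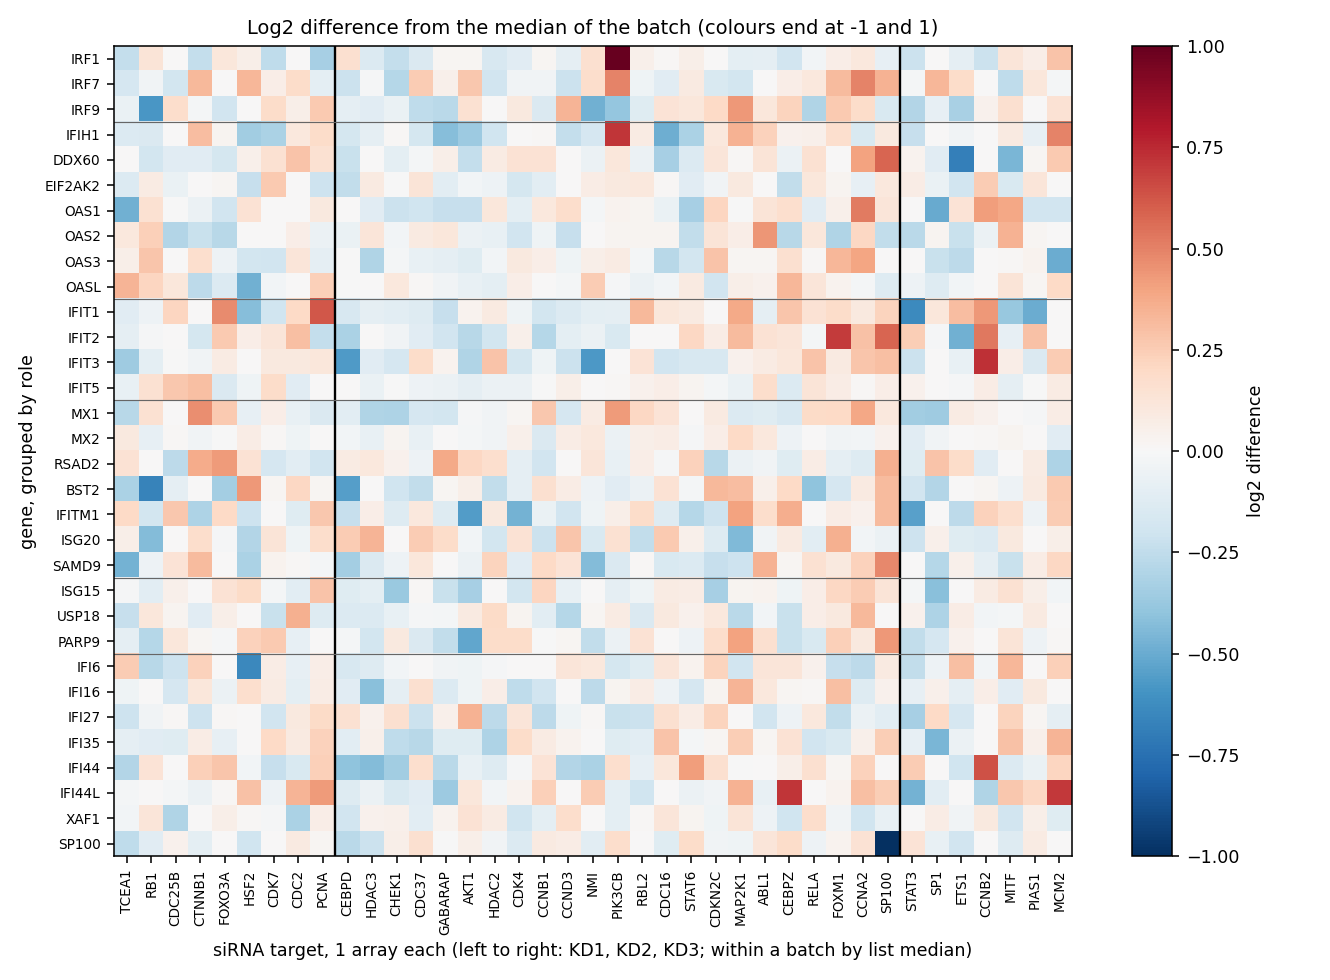
Log2 difference of each member (vertical axis, grouped by role) from the median of its batch in the array of each of 39 siRNAs (horizontal axis, 1 array each, batches divided by black lines). Most cells are pale, and the deepest are IRF1 after PIK3CB siRNA (1.66) and SP100 after SP100 siRNA (-1.30), both past the ends of the colour scale.

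The remaining values past 1.5-fold were spread over single genes. IFIT1 was at 0.62 after PCNA siRNA and IFIT3 at 0.73 after CCNB2 siRNA, an array in which IFI44 was at 0.64. IFI44L was at 0.72 after CEBPZ siRNA and 0.71 after MCM2 siRNA. DDX60 was at -0.68 after ETS1 siRNA, BST2 at -0.66 after RB1 siRNA and IFI6 at -0.64 after HSF2 siRNA. The signs of 2 of these values depended on the batch median: against the median of all 39 arrays, DDX60 after ETS1 siRNA was at 0.10 and IFIT3 after CCNB2 siRNA at -0.92.

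Members varied together in few pairs once batches were centred. Across the 39 siRNA arrays, which share a cell line and a normalisation, 7 of 496 pairs of members had an absolute Spearman's rho of 0.5 or more (1.41%), beside 2.23% of pairs of genes above noise and 0.811% of pairs among every 4th named gene. BST2 with IFI35 had the highest rho (0.69), followed by IFIT3 with IFITM1 (0.65), IFI35 with IFI44L (0.59), IFIT3 with SAMD9 (0.54), BST2 with IFI44L (0.52) and IRF9 with BST2 (0.50), and SAMD9 with IFI27 was negative (-0.51). Without the centring, 71 pairs passed, with no share of all gene pairs given here for that setting. The genes above noise outside the list whose batch-centred values were most like the median of the members over the 39 arrays were PSMB9 (rho 0.63), TCEAL3 (0.60), IFITM2 (0.59), CLEC2B (0.58), DTX3L (0.57), LDOC1 (0.56), SDR39U1 (0.56), PSMB8 (0.55), PRKACB (0.55) and UBE2L6 (0.54). They were picked for this rho, which therefore carries no test. PSMB9 and PSMB8 are subunits of the immunoproteasome, DTX3L is the partner of PARP9, and UBE2L6 is the conjugating enzyme for ISG15.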

How the data were processed

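RNA of A375 cells was hybridised to 45 Affymetrix U133 plus 2.0 arrays. The authors normalised all arrays with RMA (version not given in the sources used here), and deposited intensities on a linear scale, which were used here as log2 values without more normalisation. For its own analysis the study also scaled probe sets by their batch medians, to take out possible batch effects. The batch comparisons here used values without that step. The table of names gave 1 gene for 41097 of 54675 probe sets, several for 1801 and none for 11777. Arrays have no read depth, and their number limits the precision. Array medians lay between 5.06 and 5.15 on the log2 scale. Groups came from the sample labels and batches from the study's list of targets. Control siRNA (arrays 1 to 3) was compared with untreated (arrays 1 and 2), and each batch with the others, by limma 3.58.1 under R 4.3.3, with two-sided p-values adjusted by the Benjamini-Hochberg method over all probe sets. Further steps used Python 3.11.15. Single arrays were set against their batch median, with calls at 1.5-fold. The fits were tested on simulated data with a log2 change of 1 added to 200 probe sets: KD3 against KD2 called 200 of them and 10 others, and control siRNA against untreated 0.

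The members, gene lists and tests were chosen with earlier results of these data known. All members are named, with values for those above noise and those that differed most, and other pathway genes where called in KD3 against KD2. Alternatives varied the reference, the probe set, the noise filter, the normalisation, the prior and the arrays used. The RNA of STAT2 and targets with no array here were not analysed.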

Additional observations from a re-analysis of the deposited data

Results flagged for a closer look

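In 66 sets of arrays, each member in KD1 and in KD3 and the medians of the list, 3 values stood apart from the rest of their set by a gap wider than Dixon's limit, and chance alone gives this in about 1 in 20 sets. IFIT3 was at a log2 intensity of 7.66 after TCEA1 siRNA, 0.264 below the next lowest KD1 array, where the batch median was 8.01. ISG15 was at 7.66 after SP1 siRNA, 0.390 below the next lowest KD3 array, where the median was 8.08. USP18, which removes ISG15 from proteins, was also lowest after SP1 siRNA, at 6.24, 0.281 below the next KD3 array, where the median was 6.55.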

How the results depend on the processing

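The batch comparisons were recomputed with another probe set, another centring, another prior and only probe sets above noise. With only probe sets above noise, 6 members remained to be tested. Of these, 2 were higher and 3 lower in KD3 than in KD2 (5825 probe sets called), 0 higher and 3 lower in KD1 than in KD2 (5425 called), and 4 higher and 2 lower in KD3 than in KD1 (6046 called). With the most variable probe set, EIF2AK2 turned to 0.0664 (adjusted p 0.528) in KD3 against KD2 and to 0.25 (adjusted p 0.0163) in KD3 against KD1. Of the members called in both settings, no other turned its direction. With the most variable probe set, 14 of the 17 members called in KD1 against KD2 stayed called. It was 23 of 24 in KD3 against KD2 and 25 of 25 in KD3 against KD1.

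The count of members lower by 1.5-fold in single arrays (5 against the batch median) was 1 against the batch mean, 9 against the median of the other arrays of the batch, 41 against the median of all 39 arrays (with 45 higher) and 56 against the control siRNA mean (with 83 higher). The share of all named genes is given here only for the batch median, so the other counts have no background beside them. With only members above noise, 0 were higher and 0 lower. With all members but a limit of 2-fold against the batch median, 1 was higher and 1 lower. DDX60 after ETS1 siRNA turned to 0.10 against all 39 arrays and to 0.0232 against control siRNA, and IFIT3 after CCNB2 siRNA to -0.92 and -0.59. Both references leave the batch differences in. The median after CEBPD siRNA was -0.0664 over the members above noise. Pairs with an absolute rho of 0.5 or more numbered 71 without centring, 34 in KD2 alone and 0 of 15 among members above noise. For the first 2 settings no share of all gene pairs is given here, and KD2 alone has fewer arrays (23), so these counts cannot be set against a background.

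For control siRNA against untreated, 0 probe sets and 0 members were called under every alternative, with 255 to 2057 probe sets at an unadjusted p under 0.05 when 1 array was left out and a median of the members from -0.08 to -0.04. Deviations from the group means correlated between control siRNA and untreated arrays that share a number (r 0.580, 0.671 and 0.890), but arrays 3 are near copies, and over arrays 1 and 2 alone r was 0.387, from too few pairs to show that the numbers pair the arrays. With the replicate number as a block, 0 were called, with 1643 at an unadjusted p under 0.05 over arrays 1 to 3 and 3465 over arrays 1 and 2, and medians of -0.06 in both. IFIT1 was at 0.13 without control siRNA array 3. Signal over background limits the 26 members below noise.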
